A study of Mus musculus with 6 samples.

Results

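The genes described here encode the machinery that licenses and fires DNA replication origins and runs the replication fork. They were chosen by symbol, as a set of 43 named genes among the 24393 features of the count tables, and were read in 3 control and 3 HOXA13-overexpressing libraries of KH2 mouse embryonic stem cells (mESCs). All 43 passed the filter on low counts, with the lowest count of a member being 163 (Mcm9) and the highest 20757 (Mcm5), and were tested together with all 13846 genes that passed. KH2 is a mESC line built for single-copy insertion of a transgene, labelled as strain C57/BL/6. The HOXA13 group carries the human HOXA13 gene, FLAG-tagged and placed behind a doxycycline-responsive promoter at the targeted locus, and the control group has the genotype label CONTROL. Per the study's methods the HOXA13 cells came from hygromycin-resistant colonies that were checked for induction, and 3 biological replicates of each genotype were picked, so that a group can stand for a few colonies of 1 line. The labels state that no treatment was applied and give no doxycycline dose for these libraries. Both groups were non-differentiated, grew in serum with LIF, and shared irradiated 3T3-Swiss albino fibroblasts as feeder cells, whose RNA can enter the counts. The labels do not say whether replicates were grown and harvested separately, and p-values measure the spread between these libraries.

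Replication origins are licensed in G1 phase, when the origin recognition complex (ORC) binds DNA and, with Cdc6 and Cdt1, loads the MCM2-7 helicase as an inactive ring. Geminin (Gmnn) binds Cdt1 and blocks reloading once S phase has begun. Cdc45 and the GINS complex then join MCM2-7 to form the active helicase, and primase, the polymerases, the sliding clamp PCNA with its loader RFC, the single-strand binder RPA, the flap nuclease Fen1 and DNA ligase 1 copy both strands. Mouse embryonic stem cells have a short G1 phase and spend a large share of their cycle in S phase, and many of these genes are known targets of E2F transcription factors.

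Library totals ranged from 14608681 to 21766589 counts in control and from 13494135 to 20374341 in HOXA13 libraries. The feature that carries the human identifier of HOXA13 was counted 6, 0 and 0 times in the control libraries and 4298, 4177 and 2881 times in the HOXA13 libraries, as the labels say. Defining markers of the labelled cell type were present: none of 16 embryonic stem cell markers was at 0 counts in every library, and they summed to 0.393 to 0.552% of counts in control and 0.605 to 0.608% in HOXA13 libraries. None of 20 fibroblast markers was at 0 in every library either, and these summed to 1.61 to 2.21% of counts in control and 1.84 to 2.27% in HOXA13 libraries. The share of RNA that came from feeder cells was not estimated, and in bulk RNA fewer cells of a type and less RNA per cell cannot be told apart.

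Whole chromosomes stood apart in these libraries, which bears on members that lie there. On chromosome 1, 439 of 780 tested genes (56.3%) were called different and the median log2 fold change was 0.38, with a median deviation of all its genes of -0.257, -0.069 and -0.207 in the control libraries and 0.205, 0.178 and 0.17 in the HOXA13 libraries. Mcm3, Mcm6, Orc2 and Prim2 lie on chromosome 1. Chromosome 14 had a median log2 fold change of 0.266, with control replicates 1 and 3 low and control replicate 2 level with the HOXA13 libraries, and holds none of the 43 genes. On chromosome 11, where Cdc6, Pold2 and Rpa1 lie, control replicate 1 deviated by 0.262 and the other 5 libraries by -0.0695 to -0.0381. Member values are therefore also given, where they differ, from a fit in which every chromosome was centred to the same median in every library, called the centred fit.

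**Figure D1:**
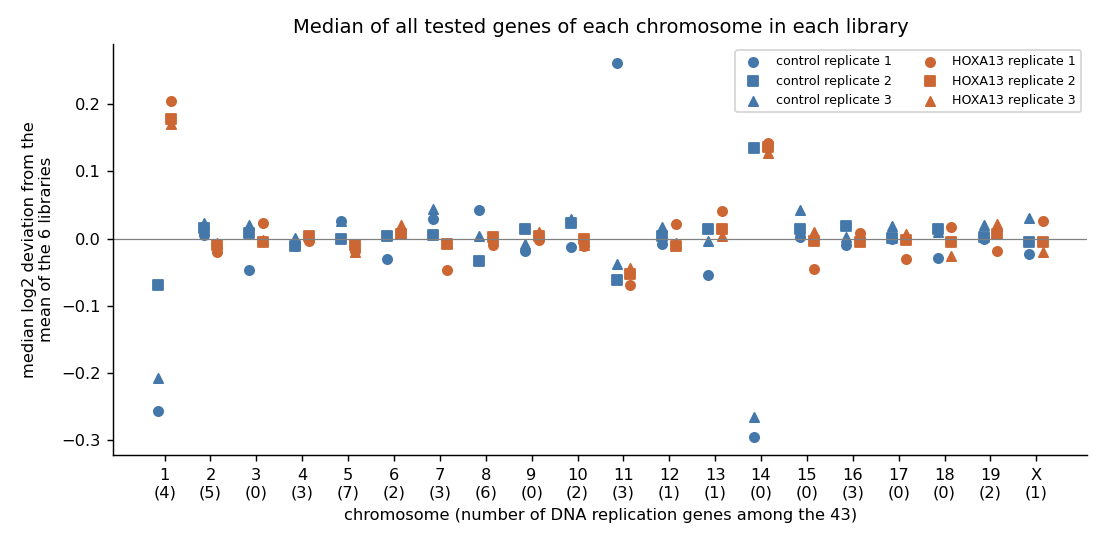
Median log2 deviation from the mean of the 6 libraries (vertical axis) over all tested genes of each chromosome (horizontal axis, with the number of the 43 replication genes in brackets), 1 point per library. Chromosome 1 separates HOXA13 libraries (0.17 to 0.205) from control libraries (-0.257 to -0.069), and control replicate 1 stands alone on chromosome 11 (0.262).

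Across the set, more members rose than fell in HOXA13-overexpressing cells. By edgeR's quasi-likelihood test at an adjusted p under 0.05, 15 of 43 members were higher (34.9%, against 14.4% of all genes tested), 4 were lower (9.3%, against 13.3%) and 24 passed in neither direction. The 15 were Mcm2, Mcm3, Mcm4, Mcm5, Mcm6, Mcm7, Orc1, Orc2, Orc6, Cdt1, Gmnn, Cdc45, Gins1, Prim2 and Rfc4, and the 4 were Orc3, Gins2, Pold3 and Rfc5. Levels are CPM, counts scaled to a common library total after TMM normalization, and log2 fold changes are given ± standard error, with 3 libraries in each group. The median log2 fold change of the 43 was 0.14, against 3.73e-05 over all genes tested, and 32 of the 43 were above 0. When counts were scaled by library size alone, 11 members were higher (11.4% of all genes were), 5 were lower (18.1% of all genes were) and the members' median was 0.062, against -0.073 over all genes. The 2 groups of libraries did not overlap for 25 members (58.1%), against 45.7% of all genes tested. The members took 0.681 to 0.727% of all counts in control libraries and 0.815 to 0.852% in HOXA13 libraries. Of this, Mcm2 to Mcm7 alone took 0.287 to 0.326% in control and 0.406 to 0.423% in HOXA13 libraries, so that they carry much of the rise.

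Members outside chromosome 1 also rose more often than they fell. Of these 39, 11 were higher (28.2%, against 14.4% of all genes tested), 4 were lower (10.3%, against 13.3%) and the median log2 fold change was 0.13. In the centred fit 16 of the 43 were higher, against 14% of all genes tested, 3 were lower, against 14.8%, and the median was 0.15. The number of higher members moved with single libraries: it was 9 without control replicate 3, 8 without HOXA13 replicate 1, 8 without HOXA13 replicate 2 and 19 without control replicate 1. The genes called over the whole table in either direction, 3836 with all 6 libraries, numbered 2584, 2038, 2104 and 4329 in the same order. A group of 8 higher members (Mcm3, Mcm4, Mcm5, Mcm6, Gmnn, Cdc45, Gins1 and Prim2) and Gins2 were called under each of the 15 alternative settings that were run. The share of all genes that kept a call under all 15 is not given here, so this count has no background beside it.

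**Figure D2:**
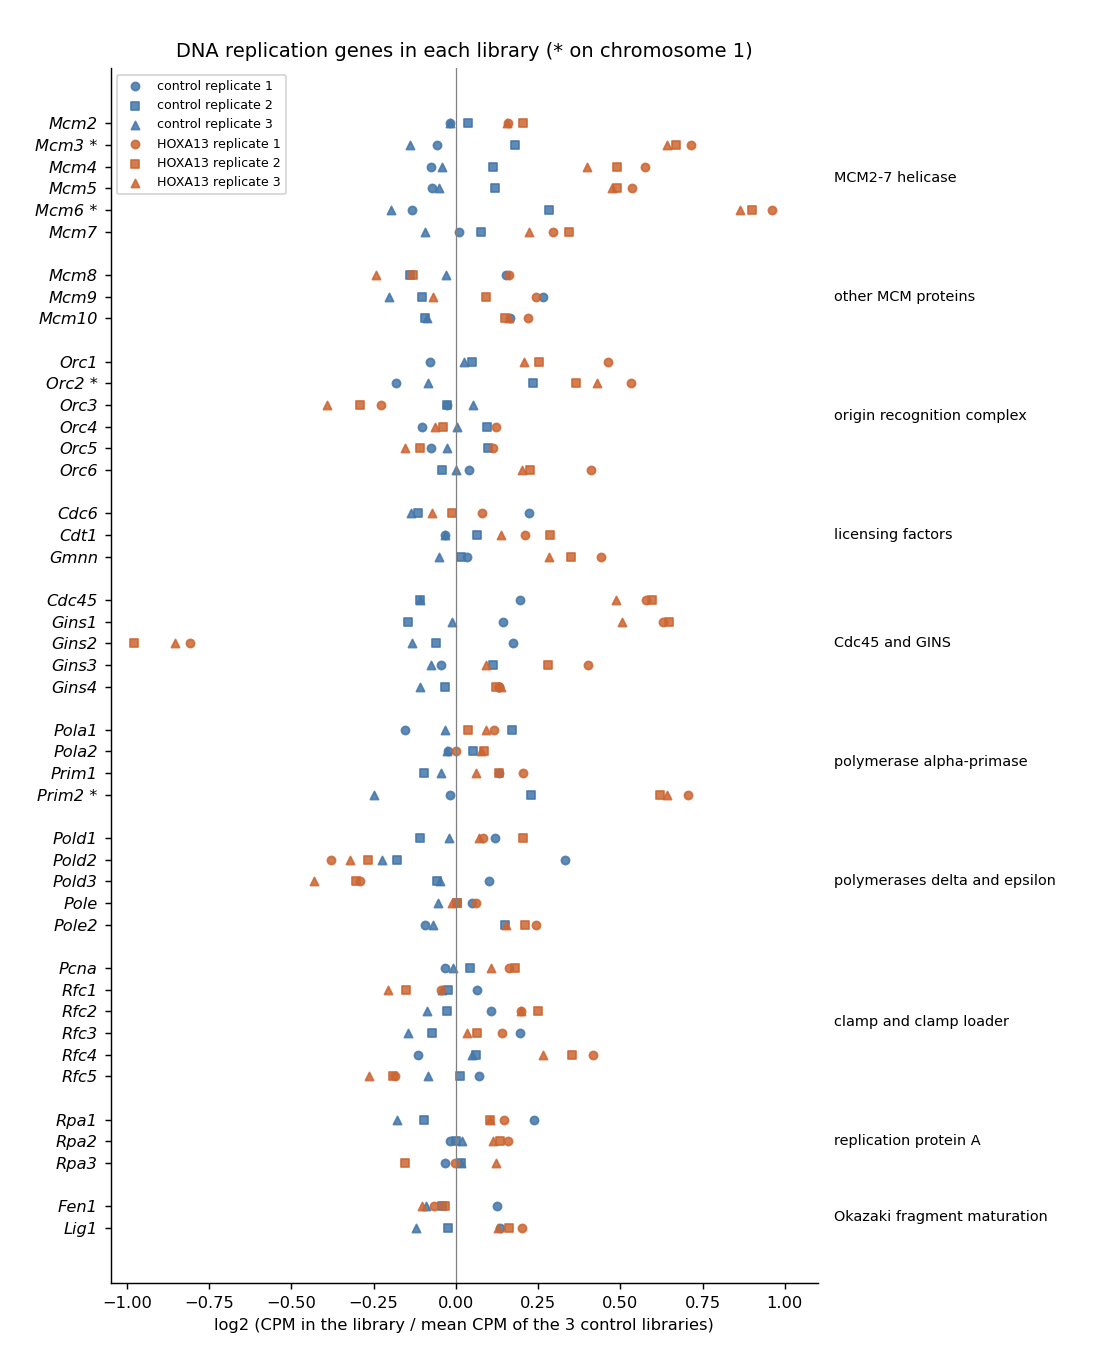
Level of each of the 43 replication genes in each library as log2 of its CPM over the mean of the 3 control libraries (horizontal axis), ordered by role, with asterisks marking genes on chromosome 1. All MCM2-7 genes lie to the right of the control libraries in the HOXA13 libraries, and Gins2 lies to the left (27.5 to 31.0 CPM against 49.5 to 61.3 CPM).

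The helicase core moved as a group: all 6 of Mcm2 to Mcm7 were higher (14.4% of all genes tested were), and none of the 6 overlapped between groups (45.7% of all genes did not). Over the 15 alternatives 4 to 6 of the 6 were called higher, with 4 without control replicate 3, HOXA13 replicate 1 or HOXA13 replicate 2. Summed over the 6, the level was 2815, 3235 and 2768 CPM in the control libraries and 4375, 4276 and 4142 CPM in the HOXA13 libraries. The increases were unequal, from 1.13-fold for Mcm2 to 1.88-fold for Mcm6.

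Mcm6 (chr1:130228168-130256233, mm9), one of the ring's 6 ATPase subunits, stood at 439, 586 and 420.2 CPM in the control libraries and 937, 899 and 877 CPM in the HOXA13 libraries (log2 fold change 0.91 ± 0.12, adjusted p = 0.00133). Control replicate 2 was the highest control library, and still well under every HOXA13 library. Mcm3 (chr1:20793055-20810359), the subunit that sits beside Mcm5 in the ring, stood at 499.9, 589 and 472 CPM in the control libraries and 853, 828 and 812 CPM in the HOXA13 libraries (log2 fold change 0.68 ± 0.086, adjusted p = 0.00111). Both genes lie on chromosome 1. In the centred fit their increases were smaller but still passed the test, at 0.54 for Mcm6 (adjusted p = 0.00193) and 0.31 for Mcm3 (adjusted p = 0.00695).

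Off chromosome 1, Mcm5 (chr8:77633427-77652338), which forms the gate of the ring with Mcm2, stood at 691, 789.9 and 702 CPM in the control libraries and 1054, 1022 and 1010.1 CPM in the HOXA13 libraries (log2 fold change 0.50 ± 0.069, adjusted p = 0.00152). Mcm4 (chr16:15623990-15637493), whose tail is a main target of the kinase that fires origins, stood at 379.6, 432 and 388 CPM in the control libraries and 597, 562 and 527 CPM in the HOXA13 libraries (log2 fold change 0.49 ± 0.075, adjusted p = 0.00247). For both genes the lowest HOXA13 library was above the highest control library, and the centred fit left the fold changes at 0.51 and 0.49. Mcm7 (chr5:138605811-138613650), which forms a stable subcomplex with Mcm4 and Mcm6, stood at 274, 287 and 255 CPM in the control libraries and 334, 345 and 317 CPM in the HOXA13 libraries (log2 fold change 0.29 ± 0.067, adjusted p = 0.0152), again with no overlap. Its call was lost without control replicate 3 (adjusted p = 0.0563), HOXA13 replicate 1 (0.0598) or HOXA13 replicate 2 (0.0798).

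Mcm2 (chr6:88833469-88848774), which also carries a histone-binding tail, changed least, from 531, 551 and 530.1 CPM in the control libraries to 599.9, 619 and 598 CPM in the HOXA13 libraries (log2 fold change 0.17 ± 0.054, adjusted p = 0.0459). Its groups did not overlap, but its call held in 5 of 15 alternatives, with adjusted p from 0.0409 to 0.176 over them, and was lost in the centred fit (0.056), with DESeq2's size factors in edgeR (0.0529), with library size alone (0.171) and with no filter (0.0652). Among single libraries left out, it was lost without control replicate 1 (0.0518), control replicate 3 (0.122), HOXA13 replicate 1 (0.0945), HOXA13 replicate 2 (0.176) and HOXA13 replicate 3 (0.115). Since Mcm2 and Mcm6 code for subunits of 1 ring, the ratio of their counts was also read, a choice made after the values were seen and so given with no test. It was 0.827, 1.06 and 0.793 Mcm6 counts per Mcm2 count in control and 1.56, 1.45 and 1.47 in HOXA13 libraries, without overlap, a log2 difference of 0.75 between group means. Mcm6 lies on chromosome 1 and Mcm2 on chromosome 6, and the 2 genes were closer in the centred fit, with log2 fold changes of 0.54 for Mcm6 and 0.15 for Mcm2.

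Levels of different genes can be compared per kilobase of exon, here the union of all annotated exons. On this scale, as mean CPM per kilobase ± SD (n = 3), Mcm5 stood at 208 ± 15.5 in control and 294 ± 6.46 in HOXA13 libraries, Mcm3 at 174 ± 20.4 in control and 278 ± 7.01 in HOXA13 libraries, and Mcm2 at 159 ± 3.45 in control and 179.7 ± 3.39 in HOXA13 libraries. Mcm4 stood at 111 ± 7.88 in control and 157 ± 9.66 in HOXA13 libraries, Mcm6 at 110.3 ± 20.8 in control and 207 ± 6.94 in HOXA13 libraries, and Mcm7 at 61.5 ± 3.64 in control and 75.04 ± 3.18 in HOXA13 libraries. In control libraries the levels of Mcm4 and Mcm6 overlapped, and so did those of Mcm3 and Mcm2. In HOXA13 libraries Mcm6 lay above Mcm2, Mcm3 lay just below Mcm5, and Mcm7 was the lowest of the 6 in both groups. The length used matters: with the longest transcript in place of the exon union, 50 of the 86 levels (43 genes in 2 groups) moved by more than 1 SD.

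**Figure D3:**
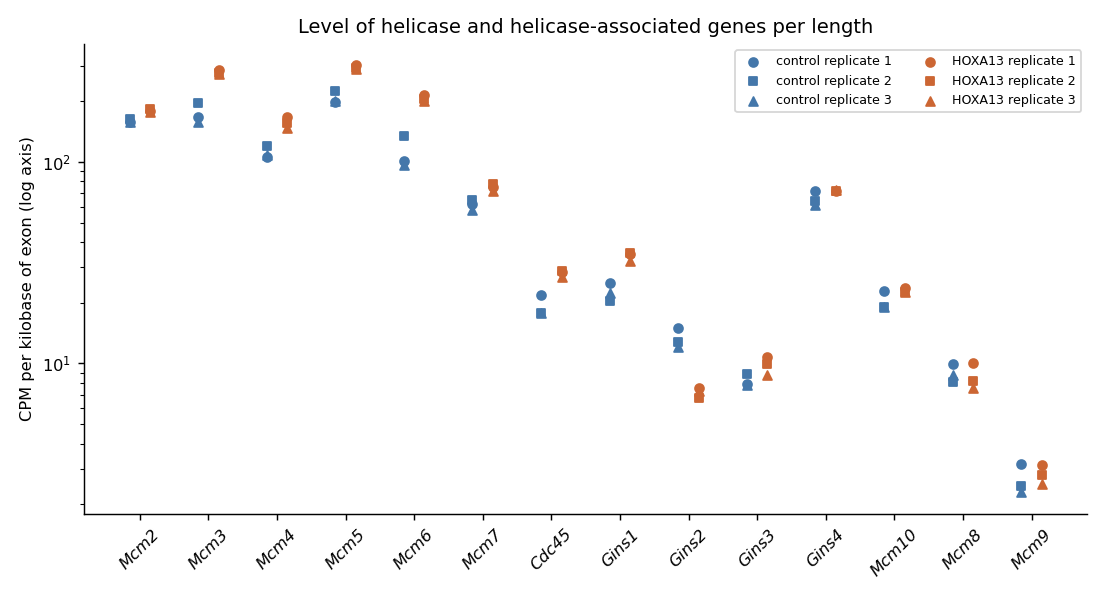
CPM per kilobase of exon (vertical log axis) of the helicase genes and of genes that join or resemble it, 1 point per library, control at left and HOXA13 at right of each gene. Mcm5 is the highest gene in both groups (208 and 294 on average), Mcm9 the lowest (2.64 and 2.82), and Gins2 falls while Gins1 and Cdc45 rise.

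The promoters of these genes are shown because the helicase genes are textbook E2F targets. Whether E2F factors have a part in the changes of these genes was not tested. RefSeq promoter windows (250 bases before to 50 bases after an annotated start, 300 bases in all, from the GRCm38.p6 table) were placed on mm9 by exact match, and are printed 5′ to 3′ on the gene's strand, with capitals for matches on either strand to the E2F octamers TTTCCCGC, TTTCGCGC, TTTGCCGC and TTTGGCGC. The Mcm6 and Mcm5 windows each hold 2 matches that overlap on opposite strands within 1 run of capitals, and Mcm7 has a further window with no match. The Mcm2 window holds no match to these letters.
Mcm6 (chr1:130256233-130256532, minus strand): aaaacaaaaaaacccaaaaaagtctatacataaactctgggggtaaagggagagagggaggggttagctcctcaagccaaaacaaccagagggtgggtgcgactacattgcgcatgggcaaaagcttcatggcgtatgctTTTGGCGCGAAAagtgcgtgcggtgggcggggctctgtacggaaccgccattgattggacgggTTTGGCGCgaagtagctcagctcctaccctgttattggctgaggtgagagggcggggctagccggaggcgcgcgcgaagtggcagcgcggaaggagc
Mcm5 (chr8:77633158-77633457, plus strand): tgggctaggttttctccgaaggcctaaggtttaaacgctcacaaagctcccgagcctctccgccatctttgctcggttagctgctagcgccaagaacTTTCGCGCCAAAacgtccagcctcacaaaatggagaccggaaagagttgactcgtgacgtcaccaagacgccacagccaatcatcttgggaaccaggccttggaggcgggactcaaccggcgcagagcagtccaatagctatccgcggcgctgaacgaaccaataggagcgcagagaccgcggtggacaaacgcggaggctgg
Mcm3 (chr1:20810344-20810643, minus strand): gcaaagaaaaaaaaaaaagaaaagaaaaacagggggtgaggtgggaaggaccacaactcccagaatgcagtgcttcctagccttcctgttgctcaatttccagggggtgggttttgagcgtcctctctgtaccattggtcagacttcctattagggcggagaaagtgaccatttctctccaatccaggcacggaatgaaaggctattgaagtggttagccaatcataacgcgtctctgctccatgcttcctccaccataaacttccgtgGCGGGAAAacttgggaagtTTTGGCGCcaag
Mcm7 (chr5:138613062-138613361, minus strand): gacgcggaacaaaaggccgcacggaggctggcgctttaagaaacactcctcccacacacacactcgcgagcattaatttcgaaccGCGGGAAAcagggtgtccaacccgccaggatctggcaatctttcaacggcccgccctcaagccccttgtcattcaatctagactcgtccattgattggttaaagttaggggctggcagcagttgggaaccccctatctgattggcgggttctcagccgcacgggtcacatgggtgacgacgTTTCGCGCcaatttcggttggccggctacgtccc
Mcm2 (chr6:88848725-88849024, minus strand): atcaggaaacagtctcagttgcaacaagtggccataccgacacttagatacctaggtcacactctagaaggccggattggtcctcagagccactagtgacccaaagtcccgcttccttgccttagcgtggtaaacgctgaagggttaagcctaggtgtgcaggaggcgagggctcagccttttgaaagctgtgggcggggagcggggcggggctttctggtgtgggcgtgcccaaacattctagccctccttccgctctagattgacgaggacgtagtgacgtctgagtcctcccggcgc

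The other 3 MCM genes did not pass by edgeR, DESeq2 or limma-voom, and none had an unadjusted p under 0.05 in edgeR. By edgeR 27.7% of all genes tested were called in either direction. Mcm10, which helps the loaded helicase start unwinding, stood at 146 to 175 CPM in control and 173 to 182 CPM in HOXA13 libraries (log2 fold change 0.18, adjusted p = 0.147), and of the 15 alternatives passed in 1, without control replicate 1 (adjusted p = 0.00828). Mcm8 and Mcm9, which form a helicase of homologous recombination, had log2 fold changes of -0.059 and 0.094 (adjusted p = 0.765 and 0.688). Their groups overlapped, and Mcm9 was the least abundant of the 43 per kilobase, at 2.64 ± 0.466 in control and 2.82 ± 0.302 in HOXA13 libraries.

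The 6 subunits of ORC did not move together: Orc1, Orc2 and Orc6 rose, Orc3 fell, and Orc4 and Orc5 did not pass, where 14.4% of all genes tested were higher and 13.3% lower. Orc1, the ATPase subunit that comes and goes with the cell cycle, stood at 91.5, 99.96 and 98.3 CPM in the control libraries and 133, 115 and 111 CPM in the HOXA13 libraries (log2 fold change 0.31 ± 0.084, adjusted p = 0.0262). Orc6, the smallest subunit, stood at 123, 116 and 119.7 CPM in the control libraries and 159, 139.8 and 138 CPM in the HOXA13 libraries (log2 fold change 0.28 ± 0.074, adjusted p = 0.0243). In both genes HOXA13 replicate 1 was the highest library and no control library reached a HOXA13 library. Both calls were lost without control replicate 3 (adjusted p = 0.0689 for Orc1 and 0.0726 for Orc6), HOXA13 replicate 1 (0.0858 and 0.0767) or HOXA13 replicate 2 (0.068 and 0.0625), and with library size as the only scaling (0.0543 and 0.0637).

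Orc2 (chr1:58519615-58561953), a core subunit on chromosome 1, stood at 176, 235 and 188 CPM in the control libraries and 289, 258 and 269 CPM in the HOXA13 libraries (log2 fold change 0.45 ± 0.11, adjusted p = 0.0183). Its increase was close to that of its chromosome, and in the centred fit it was 0.078 (adjusted p = 0.464). Leaving out control replicate 3, HOXA13 replicate 1, HOXA13 replicate 2 or HOXA13 replicate 3 also ended its call (adjusted p = 0.0735, 0.0877, 0.0504 and 0.0622). Orc3 (chr4:34518045-34562193), another core subunit, went the other way, from 81.7, 81.6 and 86.3 CPM in the control libraries to 71.0, 68.0 and 63.3 CPM in the HOXA13 libraries (log2 fold change -0.30 ± 0.070, adjusted p = 0.0151), and all 3 HOXA13 libraries lay under all control libraries. Its call was lost without control replicate 3 (0.0573), HOXA13 replicate 2 (0.0676) or HOXA13 replicate 3 (0.075). Orc4 and Orc5 had log2 fold changes of 0.010 and -0.043 with overlapping groups. Orc2 shares 12.03% of its exon bases with Nif3l1 on the opposite strand, and Orc5 12.5% with the pseudogene Gm15421 on the same strand, so that their counts are less certain.

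Of the loading factors, Cdt1 and its inhibitor Gmnn both rose and Cdc6 did not pass. Gmnn (chr13:24843714-24853792) stood at 72.3, 71.3 and 68.1 CPM in the control libraries and 95.9, 90.0 and 85.8 CPM in the HOXA13 libraries (log2 fold change 0.36 ± 0.069, adjusted p = 0.00691). Cdt1 (chr8:125091915-125097028) stood at 255, 272 and 254 CPM in the control libraries and 301, 317 and 286 CPM in the HOXA13 libraries (log2 fold change 0.21 ± 0.064, adjusted p = 0.0396). The groups were apart for both genes. The Gmnn call held under all 15 alternatives. The Cdt1 call held under 9 and was lost under 6, among them without control replicate 3 (adjusted p = 0.118), HOXA13 replicate 1 (0.106), HOXA13 replicate 2 (0.167) or HOXA13 replicate 3 (0.0635), and with library size alone (0.112).

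The balance of the factor and its inhibitor in RNA, with protein not measured, was read as Cdt1 counts per Gmnn count. It was 3.52, 3.81 and 3.73 in control and 3.14, 3.52 and 3.34 in HOXA13 libraries, a log2 difference of -0.15 between group means (two-sided exact permutation test, p = 0.2, where 3 against 3 libraries cannot go below 0.1 and so cannot pass 0.05). The highest HOXA13 library lay just above the lowest control library.

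Cdc6, the ATPase that joins ORC to the loading of MCM2-7, was at 98.2, 77.7 and 76.5 CPM in the control libraries and 88.9, 83.4 and 80.1 CPM in the HOXA13 libraries (adjusted p = 0.997). Control replicate 1 was the highest of the 6 libraries, and this gene lies on chromosome 11, where that library stands high as a whole. The log2 fold change was -0.00061, 0.13 without control replicate 1 and 0.12 in the centred fit (adjusted p = 0.196), none of which passed.

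The helicase activators split. Cdc45 (chr16:18780540-18812080), which bridges MCM2-7 and GINS, stood at 49.2, 39.9 and 39.9 CPM in the control libraries and 64.2, 65.0 and 60.3 CPM in the HOXA13 libraries (log2 fold change 0.55 ± 0.098, adjusted p = 0.00483). Gins1 (chr2:150731136-150757016), one of the subunits of GINS, stood at 37.9, 31.1 and 34.1 CPM in the control libraries and 53.1, 53.8 and 48.8 CPM in the HOXA13 libraries (log2 fold change 0.59 ± 0.093, adjusted p = 0.00276). Gins2 (chr8:123102533-123113204), its partner in the same complex, fell from 61.3, 52.1 and 49.5 CPM in the control libraries to 31.0, 27.5 and 30.01 CPM in the HOXA13 libraries (log2 fold change -0.88 ± 0.10, adjusted p = 0.000673). The 3 genes showed no overlap between groups and kept their calls under all 15 alternatives, and the centred fit left them at 0.55, 0.62 and -0.87.

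Gins2 had the most negative fold change of the 43 genes. In counts, each Gins1 count was matched by 1.61, 1.68 and 1.45 Gins2 counts in control and by 0.583, 0.512 and 0.616 in HOXA13 libraries. Per kilobase of annotated exon Gins1 was the more abundant in both groups, at 22.7 ± 2.28 against 13.2 ± 1.51 for Gins2 in control and 34.2 ± 1.80 against 7.20 ± 0.435 in HOXA13 libraries. The order in control is uncertain: it depends on the length used for Gins2 (4097 bases), of which 2758 bases overlap Gse1. The ratio of counts was chosen after its values were seen and is given with no test. Most of Gins2's annotated exon bases (67.32%) overlap Gse1 on the opposite strand, and the sources do not say whether reads were counted by strand, so that its counts may hold Gse1 reads. Gse1 stood at 106, 141 and 119 CPM in control and 101, 114 and 108 CPM in HOXA13 libraries (log2 fold change -0.18, adjusted p = 0.248), and its part in the Gins2 result was not tested. The other 2 GINS genes, Gins3 and Gins4, had log2 fold changes of 0.27 and 0.13 (adjusted p = 0.102 and 0.248). Gins4 passed without control replicate 1 (adjusted p = 0.039). Per kilobase, Gins4 was the most abundant GINS gene, at 65.7 ± 5.67 in control and 71.8 ± 0.389 in HOXA13 libraries, and Gins3 stood at 8.20 ± 0.592 in control and 9.84 ± 1.04 in HOXA13 libraries.

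Of the polymerase alpha-primase complex, which lays down the RNA-DNA primers, 1 of 4 genes passed (25%, against 27.7% of all genes tested in either direction). Prim2 (chr1:33510656-33726631), the large primase subunit, stood at 44.9, 53.3 and 38.4 CPM in the control libraries and 74.3, 70.1 and 71.1 CPM in the HOXA13 libraries (log2 fold change 0.66 ± 0.12, adjusted p = 0.00456). It lies on chromosome 1, and in the centred fit it was 0.29 (adjusted p = 0.0447). Prim1, the catalytic primase subunit, and Pola1 and Pola2, the polymerase subunits, had log2 fold changes of 0.13, 0.083 and 0.054 (adjusted p = 0.267, 0.526 and 0.561) and overlapping groups. Prim1 stood at 62.9 to 73.7 CPM in control and 70.2 to 77.5 CPM in HOXA13 libraries. In the centred fit Prim1 was 0.15 ± 0.085 and Prim2 0.29 ± 0.092, and the difference between these genes was not tested.

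Among the genes of polymerases delta and epsilon, which extend the lagging and leading strands, none of 5 rose by edgeR (none at an unadjusted p under 0.05, by DESeq2 or by limma-voom) and 1 fell (20%), against 14.4% and 13.3% of all genes tested. Pold3 (chr7:107230621-107270075), an accessory subunit of polymerase delta that binds PCNA, went from 102, 91.0 and 91.6 CPM in the control libraries to 77.4, 76.7 and 70.3 CPM in the HOXA13 libraries (log2 fold change -0.34 ± 0.075, adjusted p = 0.0121). All HOXA13 libraries were under all control libraries, and the call was lost without HOXA13 replicate 3 (adjusted p = 0.0621). Pold2, the small subunit that binds it, was at 108, 76.0 and 73.6 CPM in the control libraries and 66.1, 71.4 and 68.7 CPM in the HOXA13 libraries (log2 fold change -0.32, adjusted p = 0.13). Control replicate 1 was far above the other 5 libraries, the gene lies on chromosome 11, and the fold change was -0.12 without that library and -0.19 in the centred fit (adjusted p = 0.101). It passed without control replicate 2 (0.0463). Pold1, the catalytic subunit, Pole, that of polymerase epsilon, and Pole2, its B subunit, had log2 fold changes of 0.12, 0.019 and 0.21 (adjusted p = 0.289, 0.847 and 0.129), and Pole2 passed without control replicate 2 (0.0328).

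The sliding clamp and its loader gave 1 rise and 1 fall among 6 genes (16.7% each, against 14.4% and 13.3% of all genes tested), shares near those of all genes. Rfc4 (chr16:23114016-23127810), a small subunit of the loader, stood at 48.6, 55.0 and 54.5 CPM in the control libraries and 70.4, 67.3 and 63.3 CPM in the HOXA13 libraries (log2 fold change 0.35 ± 0.079, adjusted p = 0.0142), and lost its call without HOXA13 replicate 1 (adjusted p = 0.0659) or HOXA13 replicate 2 (0.0638). Rfc5 (chr5:117828112-117839056), another small subunit of the loader, went from 142, 137 and 128 CPM in the control libraries to 119, 119 and 113 CPM in the HOXA13 libraries (log2 fold change -0.21 ± 0.066, adjusted p = 0.0443). The groups of both genes were apart. The fall of Rfc5 was called in 7 of 15 alternatives. The 8 settings without the call include those without control replicate 1 (0.0648), HOXA13 replicate 1 (0.104), HOXA13 replicate 2 (0.129) or HOXA13 replicate 3 (0.164), the centred fit (0.0662), DESeq2 (0.0507) and no filter (0.0688). Rfc5 shares 10.69% of its exon bases with Wsb2 on the opposite strand, which rose (log2 fold change 0.42, adjusted p = 0.0115), and Rfc4 shares 12.65% with Eif4a2 (0.15, adjusted p = 0.236), whose part in these values was not tested.

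Pcna, the clamp itself and a common marker of cycling cells, stood at 161, 169.9 and 164 CPM in the control libraries and 184, 187 and 178 CPM in the HOXA13 libraries. The groups were apart but close (log2 fold change 0.15 ± 0.058, adjusted p = 0.0883), and the centred fit called it (0.18, adjusted p = 0.0408). Rfc2 was similar, at 80.1 to 91.6 CPM in control and 97.6 to 101 CPM in HOXA13 libraries (log2 fold change 0.22 ± 0.071, adjusted p = 0.0552), with a call in the centred fit (0.0246) and without control replicate 1 (0.0106). Rfc1, the large loader subunit, had a log2 fold change of -0.13 (adjusted p = 0.173) and of the 15 alternatives passed in 1, with library size as scaling (0.0431), and Rfc3 had one of 0.079 (adjusted p = 0.6).

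None of the 3 RPA genes and neither gene of Okazaki fragment maturation passed, where 27.7% of all genes tested were called in either direction. Rpa1, the large DNA-binding subunit, was at 427, 338 and 319.7 CPM in the control libraries and 399.8, 389 and 388 CPM in the HOXA13 libraries (log2 fold change 0.12, adjusted p = 0.447). It is the third member on chromosome 11, with control replicate 1 again the highest library, and it passed without that library (0.25, adjusted p = 0.00938) and in the centred fit (0.24, adjusted p = 0.0128). Rpa2, the subunit phosphorylated on replication stress, stood at 117 to 120.4 CPM in control and 128 to 133 CPM in HOXA13 libraries (log2 fold change 0.14, adjusted p = 0.11), narrow ranges that did not overlap. Rpa3, the smallest subunit, Fen1 and Lig1 had log2 fold changes of -0.0094, -0.067 and 0.16 (adjusted p = 0.951, 0.542 and 0.141), and Lig1 passed without control replicate 1 (0.0161). DESeq2 and limma-voom also called none of these 5 genes, and 1 of them, Rpa2, had an unadjusted p under 0.05 in edgeR. Fen1 shares 78.82% of its exon bases with Gm10143, a noncoding gene on the opposite strand that was not analysed here.

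**Figure D4:**
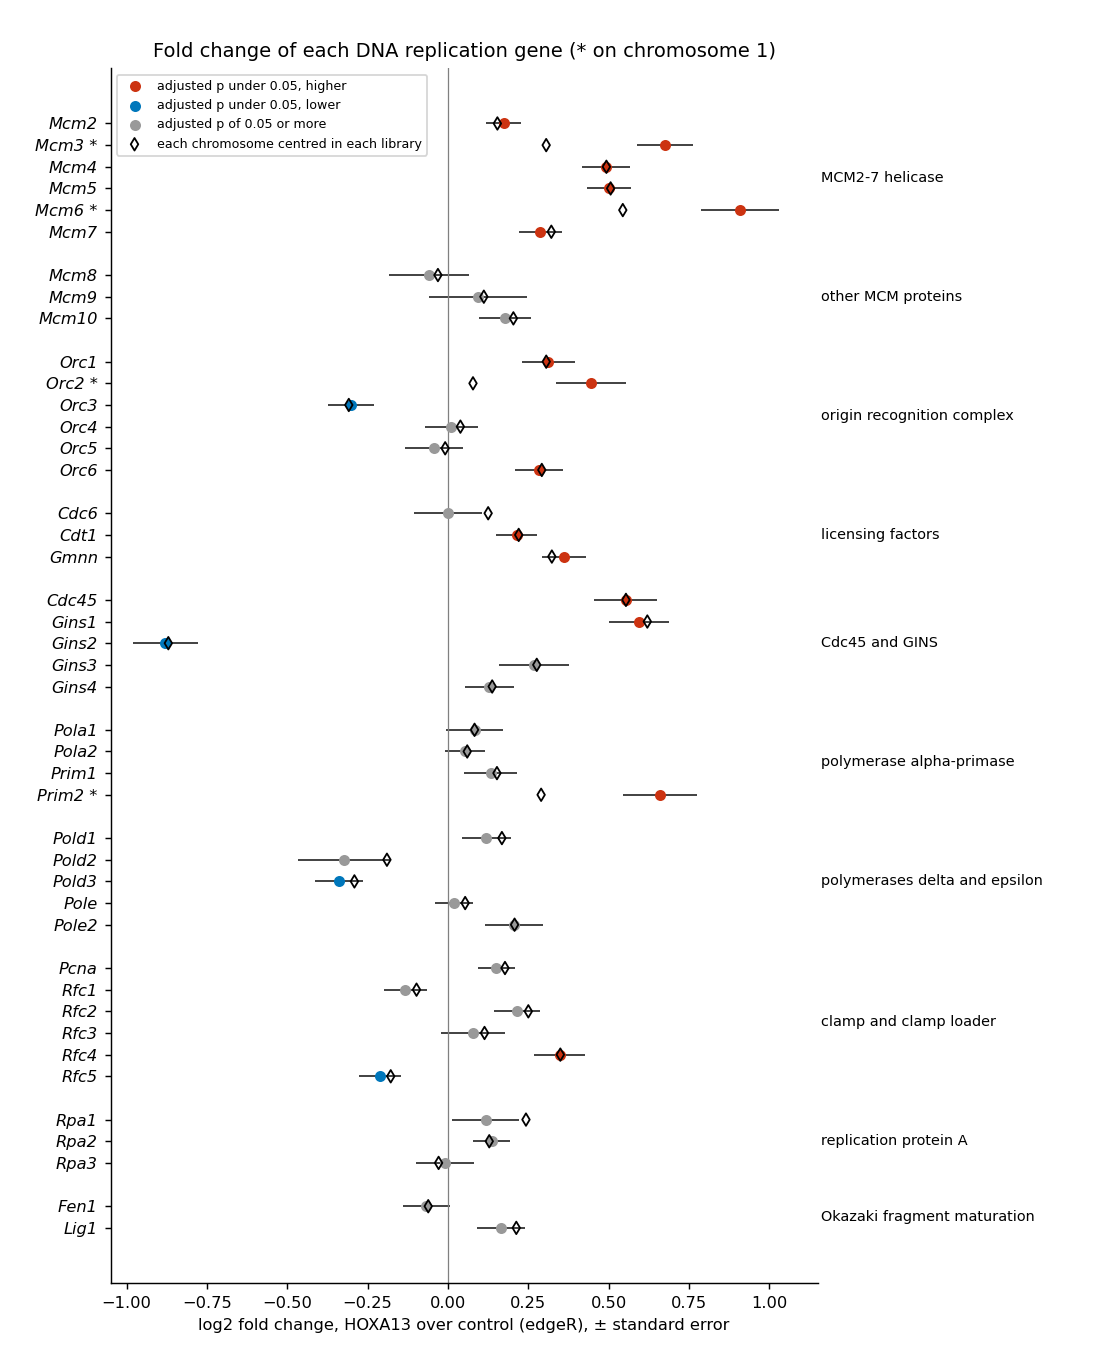
Log2 fold change of each replication gene, HOXA13 over control (horizontal axis, edgeR, bars ± 1 standard error), coloured by call, with open diamonds for the fit with each chromosome centred in each library. The diamonds of the chromosome 1 genes (asterisks) move toward 0, to 0.31 for Mcm3, 0.54 for Mcm6, 0.078 for Orc2 and 0.29 for Prim2, and those of most other genes stay in place.

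Promoter letters were compared over all members with a window, 35 of 43 genes with 43 windows. Without a window were Mcm4, Gmnn, Gins1, Gins2, Gins4, Prim2, Pole and Rfc2. At least 1 E2F octamer was found in 16 of 43 windows (37.2%), against 744 of 32851 windows of all genes (2.26%). CCAAT, on either strand, was found in 25 (58.1%, against 37.4%), and TTTGAA, the core of the CHR element of G2/M genes, in 5 (11.6%, against 17.9%). E2F octamers stood in 6 of 13 windows of genes that rose (46.2%), in 2 of 3 windows of genes that fell (66.7%) and in 8 of 27 windows of genes without a call (29.6%). CCAAT stood in 11 of 13 windows of genes that rose (84.6%), in 0 of 3 windows of genes that fell and in 14 of 27 windows of genes without a call (51.9%). These counts are small and were not tested. The following windows are shown because the E2F letters occurred on both sides: Cdc45, which rose, has no octamer, and Orc3 and Pold3, which fell, have 1 each. Capitals mark the octamers as above.
Cdc45 (chr16:18812016-18812315, minus strand): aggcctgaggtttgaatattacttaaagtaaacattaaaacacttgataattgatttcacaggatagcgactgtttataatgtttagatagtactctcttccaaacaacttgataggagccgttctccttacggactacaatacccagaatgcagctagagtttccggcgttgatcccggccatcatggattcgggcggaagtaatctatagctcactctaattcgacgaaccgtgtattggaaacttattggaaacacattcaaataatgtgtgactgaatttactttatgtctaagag
Orc3 (chr4:34562142-34562441, minus strand): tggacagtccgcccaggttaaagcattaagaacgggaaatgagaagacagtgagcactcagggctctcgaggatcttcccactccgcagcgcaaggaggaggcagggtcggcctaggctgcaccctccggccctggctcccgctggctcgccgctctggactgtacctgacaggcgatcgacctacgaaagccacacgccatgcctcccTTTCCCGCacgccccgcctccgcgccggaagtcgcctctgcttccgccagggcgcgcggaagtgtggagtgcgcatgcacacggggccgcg
Pold3 (chr7:107269963-107270262, minus strand): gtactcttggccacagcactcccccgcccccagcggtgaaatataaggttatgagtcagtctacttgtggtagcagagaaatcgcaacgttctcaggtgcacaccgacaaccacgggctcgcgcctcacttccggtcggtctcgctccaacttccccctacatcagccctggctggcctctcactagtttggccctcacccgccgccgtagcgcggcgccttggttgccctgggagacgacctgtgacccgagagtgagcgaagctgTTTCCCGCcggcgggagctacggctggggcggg

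Neighbouring genes were read next, since many replication genes share a start region with a gene on the other strand. In the mm9 annotation 15 members have such a divergent neighbour within 1000 bases, and 11 of these neighbours are features of the count tables. Of the 10 that were tested none was called by edgeR, 1 had an unadjusted p under 0.05 (Vps35, beside Orc6), and DESeq2 and limma-voom called none. Of the 10 members beside them 5 were called, and 27.7% of all genes tested were called in either direction. Beside Mcm4, Prkdc stood at 54.9, 63.5 and 55.8 CPM in control and 67.1, 57.3 and 55.3 CPM in HOXA13 libraries (adjusted p = 0.757). Beside Orc3, whose start lies 13 bases away, Rars2 had a log2 fold change of 0.071 (adjusted p = 0.584). Beside Gins1, Abhd12 had one of 0.047 (adjusted p = 0.647). For 4 more members the starts overlap, and 1 of these partners was called: Ap4m1, which shares 7.25% of the exon bases of Mcm7, was higher (log2 fold change 0.47, adjusted p = 0.0153). Ufd1l, which shares 9.28% of the exon bases of Cdc45, had a log2 fold change of 0.19 (adjusted p = 0.0611).

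Further genes of replication and the cell cycle were read from lists of their own. Of 29 tested genes of other fork and origin firing functions (30 listed), 7 rose (24.1%, against 14.4% of all genes tested) and 1 fell (3.45%, against 13.3%), with a median log2 fold change of 0.11. Among the 7 that rose, the largest log2 fold changes were those of Rnaseh2b, a subunit of the nuclease that removes RNA from DNA, at 0.97 (adjusted p = 0.0014), Ticrr (treslin), which brings Cdc45 to origins, at 0.87 (adjusted p = 0.000131), Timeless of the fork protection complex at 0.39 (adjusted p = 0.00402) and the nuclease-helicase Dna2 at 0.33 (adjusted p = 0.034). The Dna2 call was lost with library size alone (adjusted p = 0.0578) and without control replicate 3 (0.115), HOXA13 replicate 1 (0.112), HOXA13 replicate 2 (0.113) or HOXA13 replicate 3 (0.0973). Ticrr stood at 148, 133 and 142 CPM in the control libraries and 274, 251 and 245 CPM in the HOXA13 libraries, and the groups were far apart. Rnaseh2b lies on chromosome 14 and was 0.70 in the centred fit (adjusted p = 8.42e-05).

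Of 17 genes of S-phase nucleotide supply and histones, 5 rose by edgeR (29.4%, against 14.4% of all genes tested) and none fell (1 at an unadjusted p under 0.05, none by DESeq2 or limma-voom), while the median was -0.019. The 4 largest log2 fold changes were those of Rrm2, the S-phase subunit of ribonucleotide reductase, at 1.03 (adjusted p = 0.00033), Dtymk (thymidylate kinase, on chromosome 1) at 0.84 (adjusted p = 0.000608), Uhrf1, which reads hemimethylated DNA behind the fork, at 0.66 (adjusted p = 0.000348) and thymidine kinase Tk1 at 0.38 (adjusted p = 0.0418). The Tk1 call held under 8 of 15 alternatives, and among the losses were those with library size alone (adjusted p = 0.0807) and without control replicate 2 (0.0559), control replicate 3 (0.109), HOXA13 replicate 1 (0.0966), HOXA13 replicate 2 (0.14) or HOXA13 replicate 3 (0.117). Rrm2 stood at 296, 393 and 328 CPM in the control libraries and 715, 684 and 672 CPM in the HOXA13 libraries, a 2.04-fold rise. In the centred fit Dtymk was 0.47 (adjusted p = 0.000964) and Tk1, which lies on chromosome 11, was 0.51 (adjusted p = 0.00258). The other 12 genes of the list did not pass.

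Of 36 G1/S regulators 10 rose (27.8%, against 14.4% of all genes tested) and 4 fell (11.1%, against 13.3%), with a median of 0.018. E2f2, an activating E2F, changed on the log2 scale by 1.47 (adjusted p = 0.0106), the D-type cyclin Ccnd3 by 1.44 (adjusted p = 0.00127), Lin9 of the MuvB complex (chromosome 1) by 1.01 (adjusted p = 0.001) and the CDK inhibitor Cdkn1c by -1.04 (adjusted p = 0.00542). Lin9 was 0.64 in the centred fit (adjusted p = 0.00166). E2f2 was low, at 5.57, 12.4 and 4.70 CPM in the control libraries and 19.95, 20.2 and 21.5 CPM in the HOXA13 libraries. Its control replicate 2 was above the other controls and under every HOXA13 library, and the E2f2 call was lost without HOXA13 replicate 1 (adjusted p = 0.0532).

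Of 30 mitotic genes 12 rose (40%, against 14.4% of all genes tested) by edgeR and none fell (1 at an unadjusted p under 0.05, none by DESeq2 or limma-voom), with a median of 0.16, close to that of the replication genes (0.14). Mybl2, a transcription factor of S and G2 phase genes, changed on the log2 scale by 0.87 (adjusted p = 0.000613), the kinetochore genes Cenpf and Nuf2 (both on chromosome 1) by 0.73 (adjusted p = 0.000351) and 0.67 (adjusted p = 0.00328), and Incenp of the chromosomal passenger complex by 0.33 (adjusted p = 0.00478). In the centred fit Cenpf was 0.36 (adjusted p = 0.00309) and Nuf2 0.30 (adjusted p = 0.0434). The share of cells in each cycle phase was not measured in these libraries, and its part in the replication gene levels was not tested.

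Of the cell type markers, 1 of 20 fibroblast genes passed by edgeR (5%, against 27.7% of all genes tested in either direction), the receptor gene Pdgfra, which fell (log2 fold change -0.80, adjusted p = 0.0192). The median of the 20 was 0.13, close to that of the replication genes (0.14). None of the 20 rose by edgeR or limma-voom, 1 did by DESeq2, and 1 had an unadjusted p under 0.05. Of 16 embryonic stem cell markers 7 rose (43.8%) and 3 fell (18.8%), against 14.4% and 13.3% of all genes tested, with a median of 0.23, the largest log2 fold changes being those of the naive pluripotency factor Tfcp2l1 (chromosome 1) at 2.24 (adjusted p = 0.00401), Lin28a at -1.16 (adjusted p = 1.71e-05), Klf4 at 1.14 (adjusted p = 0.0297) and Tdgf1 at -1.09 (adjusted p = 3.03e-05). The Pdgfra call was lost without control replicate 3 (adjusted p = 0.0719), HOXA13 replicate 1 (0.0899) or HOXA13 replicate 2 (0.0892). The Klf4 call was lost without control replicate 3 (adjusted p = 0.108) or any HOXA13 replicate (0.109, 0.0906 and 0.0783) and with DESeq2 (0.0522). Control replicate 2 was the highest control library for Tfcp2l1 and Klf4, as it was for all of Mcm2 to Mcm7. Tfcp2l1 stood at 192, 598 and 241 CPM in the control libraries and 1669.8, 1565 and 1636 CPM in the HOXA13 libraries. Without control replicate 2, 16 members were higher and 5 lower, and the members' median was 0.13. Whether these shifts have a part in the replication gene levels was not tested.

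**Figure D5:**
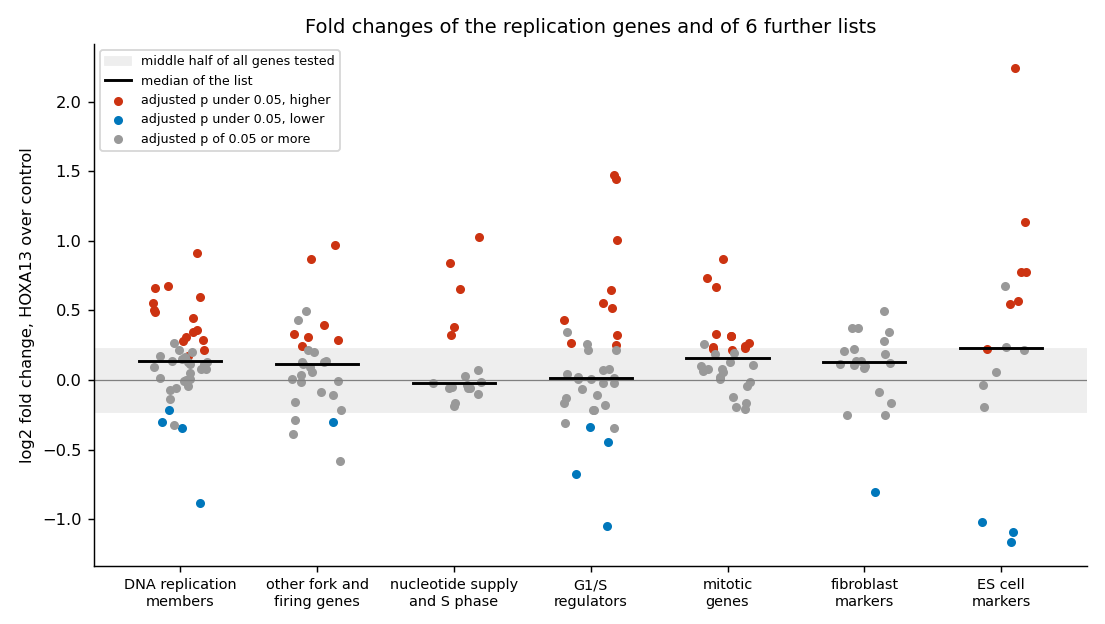
Log2 fold change, HOXA13 over control (vertical axis), of each tested gene in the replication set and in 6 further lists (horizontal axis), with bars at the medians and shading from the lower to the upper quartile of all genes tested. The medians of the replication genes (0.14) and mitotic genes (0.16) lie above that of all genes. So do those of the other fork genes (0.11), fibroblast markers (0.13) and embryonic stem cell markers (0.23). The G1/S regulators have a median near 0 (0.018), and the nucleotide supply list holds a few strong rises over a median of -0.019.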

How the data were processed

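RNA was sequenced from 3 control and 3 HOXA13-overexpressing KH2 mESC libraries, stranded and poly(A)-selected per the labels. The authors mapped reads to mm9 and deposited raw counts per gene, 1 table per library. The submitters' processing notes name bcl2fastq 2.17, TopHat2 2.0.14 and HTSeq 0.6.1p1. The gene annotation, the counting mode and the strand setting are not given in the sources used here.

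The deposited counts were filtered with filterByExpr (minimum count 10, minimum total 15), scaled with TMM factors and tested with edgeR 4.0.16 (glmQLFit and glmQLFTest, R 4.3.3) without covariates. P-values were adjusted over all 13846 genes tested (Benjamini-Hochberg) and called under 0.05. Log2 fold changes use edgeR's prior count of 0.125, and standard errors are the fold change over the square root of F. Depth differed between libraries (13494135 to 21766589 counts), which makes fold changes of low genes less precise in the shallower ones. The scripts were first tested on simulated data. Alternatives were RLE factors, library size alone, no filter, a floor of 10 counts in each of the 6 libraries, robust estimation, a replicate block, DESeq2 1.42.0, limma-voom (limma 3.58.1), each chromosome centred in each library (the median deviation of its tested genes set to 0), and each library left out in turn.

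The 43 members and the 6 further lists were chosen with earlier results of these data known. The genes named are all members and, per further list, up to 4 genes past the threshold with the largest absolute log2 fold change and a mean of at least 1 log2 CPM. Gene positions, exons and neighbours (starts within 1000 bases on the opposite strand) come from the GENCODE annotation of mm9, and promoter windows from RefSeq. The paper's differential expression tool was DESeq2, which is an alternative here.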

Additional observations from a re-analysis of the deposited data

How the results depend on the processing

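Over 15 alternatives no called member changed direction. Of 960 compared gene values 862 kept direction and side of the threshold, 68 lost the call, 11 gained one and 19, all of members without a call, turned direction. Leaving out 1 library gave 8 (without HOXA13 replicate 1, and also without HOXA13 replicate 2) to 19 higher members (without control replicate 1), against 15. It gave 1 (without HOXA13 replicate 3) to 5 lower members (without control replicate 2), against 4, with 2 without HOXA13 replicate 2. The count of higher members was 9 without control replicate 3. The members' median log2 fold change ran from 0.11 (without control replicate 3) to 0.20 (without control replicate 1), and was 0.062 with library size alone, against 0.14. Genes called over the whole table ran from 2038 (without HOXA13 replicate 1) to 5007 (without control replicate 2), against 3836, and were 2104 without HOXA13 replicate 2 and 2311 without HOXA13 replicate 3. The cause of these moves was not tested. With library size alone Orc4 was -0.062, Pola2 -0.018 and Pole -0.054. Cdc6 was 0.0064 with no filter, 0.0071 with the replicate block, 0.0058 with limma-voom and 0.12 with chromosomes centred. With 1 library left out, log2 fold changes ran from -0.18 to 0.026 for Mcm8, -0.048 to 0.050 for Orc4, -0.066 to 0.13 for Cdc6, -0.0013 to 0.25 for Mcm9, -0.0084 to 0.044 for Pole, -0.074 to 0.061 for Rpa3 and -0.13 to 0.0088 for Orc5. With the replicate block 12 members were higher and 3 lower, 3172 genes were called, and Mcm2 (adjusted p = 0.0886), Orc1 (0.0615), Cdt1 (0.0565), Rfc5 (0.0697) and Tk1 (0.061) did not pass. The replicate numbers are not known to pair libraries: same-numbered libraries' deviations correlated at -0.0154, -0.0454 and 0.0182 across genes, and not every library correlated best with its own number. The Cdt1 to Gmnn ratio holds no normalization, since scaling cancels within a library.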
